A study of Mus musculus with 16 samples.

Results

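The late-induced genes are 65 genes of 12215 tested whose RNA rose mainly between 2 h and 4 h of ERK activation in mouse embryonic stem cells. They were chosen on measured values: a mean of at least 5 CPM at 4h, a rise from 0h to 4h of at least 0.6 in log2(mean CPM + 1), and a 2h change of at most 0.4 times that rise. CPM, the count scaled to a common library size, was computed after TMM scaling, which corrects for composition. Of 67 genes that met these limits, 2 were dropped by name. All 16 libraries came from CRAFR26 embryonic stem cells, which are routinely grown in medium with LIF, a GSK3 inhibitor and a MEK inhibitor and which carry a c-RAF kinase construct that 4-hydroxytamoxifen switches on. In every group the MEK inhibitor had been replaced for 48 h by 250 nM PD17, an FGF receptor inhibitor. The 0h group received nothing more, the 2h and 4h groups received 250 nM 4-hydroxytamoxifen for 2 h or 4 h, and the rev group received a MEK inhibitor for 2 h after the 4 h of tamoxifen. Each group held 4 libraries, 2 replicates from clone 4 and 2 from clone 8. The driver of the construct is not given in the sources used here. Cells given the tamoxifen vehicle, or kept for a further 2 h without the MEK inhibitor, were not analysed here, so in rev the inhibitor and the extra time cannot be told apart. Nothing in the labels says that the replicates of a clone were separate cultures, so p-values measure the spread between these libraries.

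ERK is the last kinase of a cascade in which RAF phosphorylates MEK and MEK phosphorylates ERK. Active ERK first raises immediate-early genes through factors that are already present, among them the ETS, SRF and AP-1 families, and feedback genes such as the Sprouty and dual-specificity phosphatase genes. Genes that rise later often need a protein made in the first wave, or take longer to transcribe and process. In mouse embryonic stem cells, FGF acting through ERK pushes cells out of the naive state, which is why MEK and FGF receptor inhibitors are used to hold them there.

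Total counts ranged from 2172651 to 12680303 per library, TMM factors from 0.463 to 1.47, and the 8 most abundant gene models took 42.0% to 80.4% of a library's counts, most in rev clone 8 replicate 2. A signal of 3 counts, taken as the floor, corresponded to 0.213 to 1.35 CPM, and covers counting error only. No late-induced gene had all 0h libraries at or under 3 counts. The summed CPM of 8 embryonic stem cell markers was 1353 to 1702 over all 16 libraries. Of 11 primitive endoderm markers 1 was detected well enough to test, and the fibroblast markers Postn and Dcn and the endoderm marker Ttr were at 0 in every library. The summed CPM of 7 mesoderm markers was 5.56 to 7.06 at 0h, 6.75 to 21.0 at 2h, 16.3 to 40.3 at 4h and 4.81 to 9.99 in rev, and that of 8 trophoblast markers 12.4 to 17.7 at 0h, 15.02 to 19.1 at 2h, 22.3 to 25.3 at 4h and 22.7 to 28.8 in rev. The 6 neural markers summed to 58.7 to 72.5 CPM at 0h, 51.6 to 61.3 CPM at 2h, 48.4 to 53.2 CPM at 4h and 66.2 to 85.2 CPM in rev, where the range overlaps that at 0h, and the 7 fibroblast markers to 2.44 to 8.56 CPM over all groups. The part of such cells in the late-induced genes was not tested, and in bulk RNA more cells of a type and more RNA per cell cannot be told apart.

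Promoter sequences of late-induced genes are shown because the genes were chosen for moving together. RefSeq sequences of GRCm38.p6 were matched for 47 of the 65 genes, which gave 76 promoters of 300 bases, from 250 before to 50 after a start. Both strands were searched for the AP-1 element TGANTCA, which FOS and JUN proteins bind, and the EGR element GCGNGGGCG. AP-1 letters were in 4 of the 76 promoters (5.26%), against 7.81% of all 32851 promoters and 4.66% of those of tested genes. EGR letters were in 11 promoters (14.5%), against 5.55% and 10.9%. Each sequence below holds the 250 bases before a start, 5′ to 3′ on the gene's strand, with the matched letters in capitals on whichever strand they were found. The first pair is from Sgms2, which had the largest rise (chr3:131490661-131490910 and chr3:131490231-131490480, minus strand, AP-1), and the next from Bag3 (chr7:128523333-128523582, plus strand, AP-1). They are followed by Rarg (chr15:102257523-102257772, minus strand, EGR), which fell in part in rev, and by Tcf7l2 (chr19:55741560-55741809, plus strand, EGR) and Lamb1 (chr12:31265043-31265292, plus strand, EGR), for which no fall was called.
Sgms2 upstream start: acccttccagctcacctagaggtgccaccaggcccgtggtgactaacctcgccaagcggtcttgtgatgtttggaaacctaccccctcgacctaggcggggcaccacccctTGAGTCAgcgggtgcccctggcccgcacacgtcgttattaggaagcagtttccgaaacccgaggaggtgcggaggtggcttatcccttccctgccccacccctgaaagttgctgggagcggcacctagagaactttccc
Sgms2 downstream start: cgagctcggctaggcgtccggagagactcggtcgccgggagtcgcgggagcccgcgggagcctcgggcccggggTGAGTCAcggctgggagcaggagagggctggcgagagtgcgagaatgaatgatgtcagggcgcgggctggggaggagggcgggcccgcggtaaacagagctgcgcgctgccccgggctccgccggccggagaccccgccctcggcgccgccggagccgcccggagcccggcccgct
Bag3: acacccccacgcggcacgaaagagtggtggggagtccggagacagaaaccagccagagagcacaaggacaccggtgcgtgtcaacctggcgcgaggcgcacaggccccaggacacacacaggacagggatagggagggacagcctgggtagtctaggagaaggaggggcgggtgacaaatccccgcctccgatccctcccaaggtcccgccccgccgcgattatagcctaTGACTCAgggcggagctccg
Rarg: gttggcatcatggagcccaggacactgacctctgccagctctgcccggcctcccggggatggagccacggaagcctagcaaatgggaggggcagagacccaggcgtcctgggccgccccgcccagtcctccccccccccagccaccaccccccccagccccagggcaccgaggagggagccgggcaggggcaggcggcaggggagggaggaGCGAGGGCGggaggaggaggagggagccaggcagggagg
Tcf7l2: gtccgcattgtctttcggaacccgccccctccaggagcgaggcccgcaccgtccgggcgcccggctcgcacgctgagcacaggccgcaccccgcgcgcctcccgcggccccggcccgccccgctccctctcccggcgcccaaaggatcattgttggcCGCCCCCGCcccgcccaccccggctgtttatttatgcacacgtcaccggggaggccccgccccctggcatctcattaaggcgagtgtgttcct
Lamb1: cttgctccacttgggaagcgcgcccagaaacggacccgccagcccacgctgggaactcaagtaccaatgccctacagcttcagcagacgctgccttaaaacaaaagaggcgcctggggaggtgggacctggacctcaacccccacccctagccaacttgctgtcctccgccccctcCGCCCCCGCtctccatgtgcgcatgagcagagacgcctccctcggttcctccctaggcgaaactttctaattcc
The matches begin at -139 and -176 from their starts in Sgms2, at -20 in Bag3, at -39 in Rarg, at -93 in Tcf7l2 and at -74 in Lamb1. Gpnmb, the other gene with AP-1 letters, has them at 8 bases after its start. The ETS element CCGGAAGT was found in 1 promoter (1.32%; 3.89% of all and 8.28% of tested), the TEAD element ACATTCC in 3 (3.95%; 3.85% and 2.61%), and the TCF/LEF element CTTTGAT in 3 (3.95%; 3.73% and 2.499%). The E-box CACGTG was in 6 (7.89%; 7.15% and 10.3%) and the AGGTCA letters of nuclear receptor sites in 9 (11.8%; 16.3% and 12.1%). The CRE letters TGACGTCA (1.79% and 3.09%) and the CArG box (1.63% and 1.23%) were in none. These are matches of letters, several of which can overlap, and several promoters belong to 1 gene.

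The members rose from a median of the group means of 5.99 CPM at 0h to 7.02 CPM at 2h and 15.8 CPM at 4h, and were at 11.53 CPM in rev. Their rise from 0h to 4h, which chose them, ran from 0.60 to 2.21 on the log2(CPM + 1) scale with a median of 0.80. The 2h change was between -0.65 and 0.40 of it, with a median of 0.27. As a description, the edgeR test called 65 of the 65 higher at 4h than at 0h (adjusted p under 0.05), where it called 17.2% of all tested genes. It called 60 higher at 4h than at 2h (background 3.8%) and 24 higher at 2h than at 0h (background 11.4%). The 0h, 2h and 4h libraries chose the genes, so nothing is read from these counts. Every 4h library was above every 0h library for 53 members (12.3% of all genes) and above every 2h library for 44 (4.32%).

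**Figure D1:**
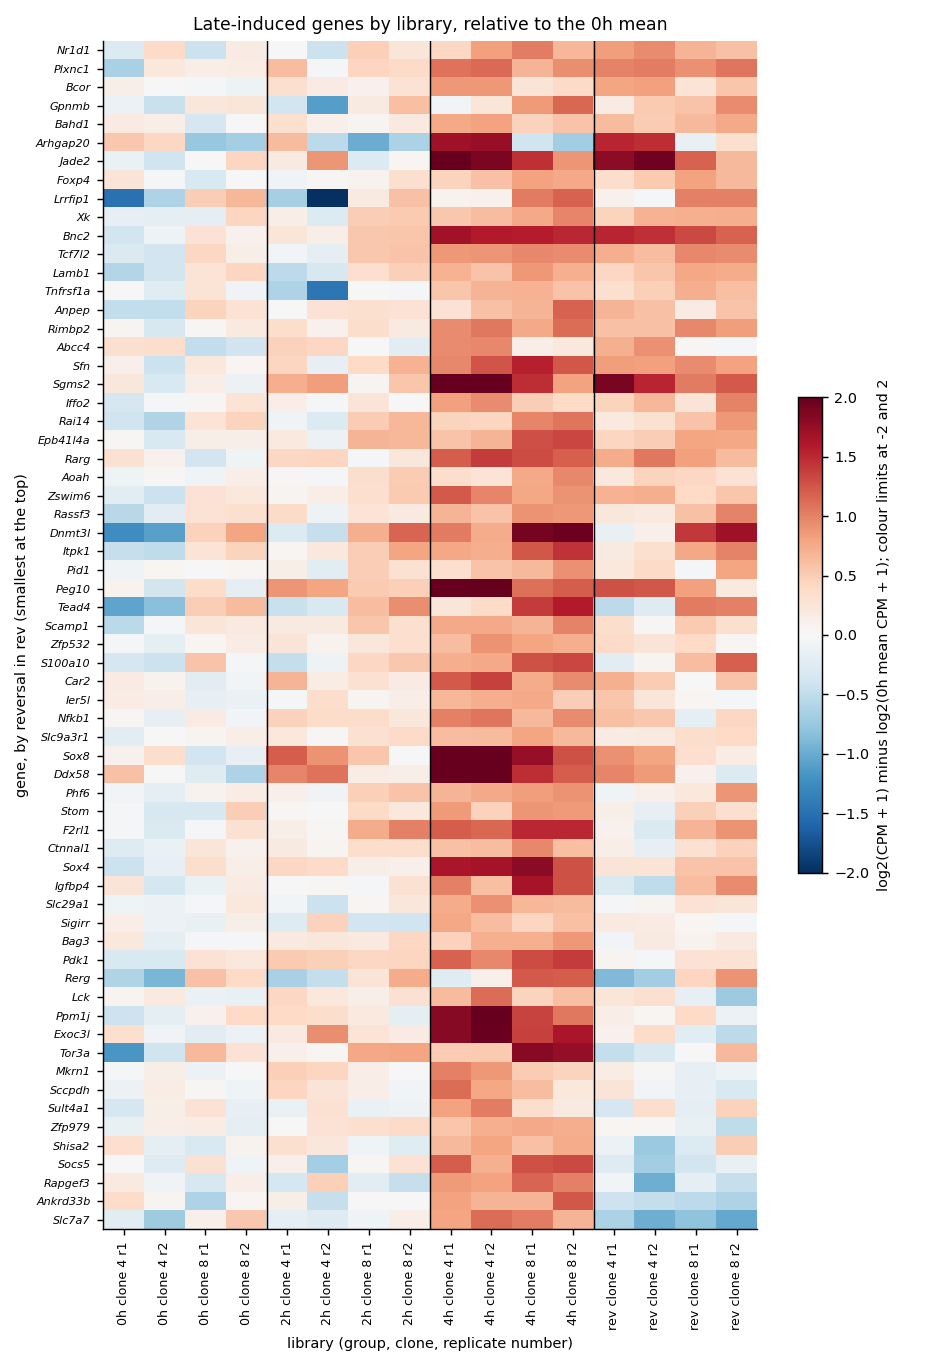
Heat map of 64 of the 65 late-induced genes (rows, ordered by reversal in rev) in the 16 libraries (columns), coloured by log2(CPM + 1) minus log2 of the 0h mean CPM + 1, with colours limited to -2 and 2. The 4h columns are red in nearly every row, the 2h columns are mostly pale, and the rev columns go from as red as 4h at the top to pale or blue at the bottom, where Slc7a7 lies.

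Membership near the limits was a matter of small differences. Anpep (5.09 CPM), Gpnmb (5.19 CPM) and Rapgef3 (5.33 CPM) lay just inside the 4h minimum, and Slc12a5 (4.99 CPM), Lonrf3 (4.88 CPM) and Pou4f2 (4.67 CPM) just outside it. Sigirr (a rise of 0.604), Abcc4 (0.613) and Aoah (0.616) lay just inside the minimum rise, and Sssca1 (0.594), Zfp1 (0.590) and Nid2 (0.581) just outside. On the share of the rise reached by 2h, F2rl1 (0.397), Scamp1 (0.395) and Epb41l4a (0.393) were just inside and Tex15, Pcdhgc3 and Shisa5 (each 0.405) just outside. When each of the 16 libraries was left out in turn, 25 of the 65 genes met the limits every time, and the least stable gene, Abcc4, met them 8 times. Scaled by library size alone, 197 genes met the limits.

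In rev, 43 of the 65 late-induced genes had fallen below their 4h level and none was higher (edgeR adjusted p under 0.05), where 8.43% of all tested genes were lower and 7.93% higher. The 4h libraries also chose the genes, so this count is not independent of the choice. Within clones, 35 members were lower in clone 4 (background 5.46%) and 23 in clone 8 (background 2.8%). At an unadjusted p under 0.05, 44 were lower and 0 higher (14.5% and 14.7% of all genes), and DESeq2 called 40 lower and 0 higher (7.41% and 6.23%). The median change from 4h to rev was -0.54 (log2), against 0.01 over all genes, and 1 gene, Nr1d1, had a positive value (0.08). Every rev library lay below every 4h library for 27 members (6.79% of all genes). Without rev clone 8 replicate 2, the library with the lowest TMM factor, 41 were lower (8.32% of all genes). The 8 most abundant models took 42.0% to 62.4% of counts at 4h and 55.1% to 80.4% in rev. With this percentage as a covariate 35 were lower (5.34% of all genes), and without the clone term 28 (3.79%).

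Against 0h, 36 members were still higher in rev and 1, Slc7a7, was lower, where 12.4% of all genes were higher and 9.86% lower. Here the 0h libraries had entered the choice. Within clones, 26 were higher in clone 4 (background 6.75%) and 21 in clone 8 (background 7.84%). Every rev library lay above every 0h library for 19 members (9.59% of all genes). The count depends on the scaling: by library size alone, which moves the median of all genes to -0.32 for rev against 0h and to -0.41 for rev against 4h, 4 members were called higher. Relative to that all-gene median, the member median was 0.49 with library size alone and 0.48 with TMM, and 54 and 55 of the 65 lay above it. Without the clone term 15 were called higher, and with any 1 library of the 2 groups left out 28 to 33.

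Both tests together placed 26 genes as fallen and not called against 0h, 16 as fallen but still above 0h, 20 as not called against 4h and above 0h, 2 (Anpep and Pid1) as called in neither test, and Slc7a7 as fallen below 0h. Reversal is the part of the 4h log2 change undone in rev, where 0 means none and 1 means all. Its median over the 65 genes was 0.591 from the fitted changes, and the middle 50% of genes lay between 0.238 and 0.851. A second form used log2(CPM + 1) in a single rev and a single 4h library, matched by clone and replicate number. Their difference was divided by the rise in the mean CPM of both clones. Over these matches the median of the second form had an SD of 0.105 and a range of 0.385 to 0.638. The numbers did not pair the libraries, so this match is arbitrary within a clone. Reversal was 0.9 or more for 14 genes (21.5%) and under 0.2 for 16 (24.6%). For comparison, 324 genes met the same level and rise but had more than 0.4 of the change by 2h. Of these 206 (63.6%) were lower in rev than at 4h, against 66.2% of the late-induced genes, and 238 (73.5%) were above 0h in rev, against 55.4%. Their median reversal from the fitted changes was 0.435 (SD of the second form 0.0358), with 24 (7.41%) at 0.9 or more and 67 (20.7%) under 0.2. These differences between the sets were not tested, and both sets share the 0h and 4h libraries. The 4h level enters both the choice and the reversal, and the late-induced genes were also chosen against 2h. A 4h level that is high by chance can therefore raise their reversal. For genes chosen in 1 clone and measured in the other, the median reversal was 0.469 and 0.539.

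**Figure D2:**
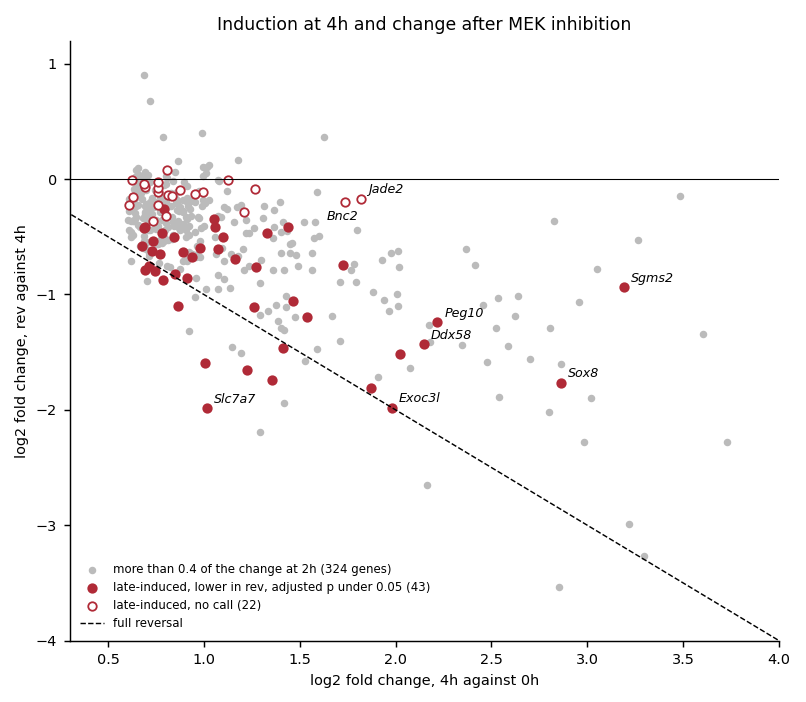
Log2 fold change from 0h to 4h (x) against the change from 4h to rev (y) for late-induced genes (red, filled where the fall was called) and for 324 genes with more than 0.4 of the change at 2h (grey, 17 of them outside the axes); the dashed line marks full reversal. Slc7a7 lies below the line, Exoc3l on it, and Jade2 and Bnc2 close to 0 on the y axis.

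The 12 transcription factors included 7 that fell in rev and 9 that were still above 0h there (8.43% and 12.4% of all tested genes). Their median reversal was 0.457. Values by library are given in the order clone 4 replicates 1 and 2, then clone 8 replicates 1 and 2. Sox8 (ENSMUSG00000024176, chromosome 17, 25565892 to 25570686, minus strand), a SOX factor of neural crest and testis, was at 0.815, 1.19, 0.322 and 0.535 CPM at 0h and 2.98, 2.2, 1.52 and 0.710 CPM at 2h. Sox8 was then at 8.14, 5.96, 4.75 and 3.16 CPM at 4h and 2.24, 1.95, 1.16 and 0.901 CPM in rev. All 4h libraries were above all 0h and all rev libraries, and clone 8 was below clone 4 at each time. With 0h values near the floor, the fitted rise of 2.86 (SE 0.30) on the log2 scale depends on the prior count. The fall to rev was -1.77 (SE 0.26, edgeR adjusted p 6.5e-06), and Sox8 stayed above 0h with a log2FC of 1.10 (SE 0.40, edgeR adjusted p 0.044). The value in rev clone 8 replicate 2 rests on fewer than 3 counts. Sox4 (ENSMUSG00000076431, chromosome 13, 28948919 to 28953713, minus strand), a SOX factor of progenitor cells, was at 1.09, 1.49, 2.57 and 2.03 CPM at 0h and 2.72, 2.63, 2.03 and 1.99 CPM at 2h. Sox4 was then at 7.70, 7.83, 8.73 and 5.79 CPM at 4h and 2.35, 2.39, 3.15 and 3.16 CPM in rev. The 4h libraries stood apart from all others, and the 2h and rev libraries overlapped. Its log2 rise was 2.03 (SE 0.22) and its change from 4h to rev -1.51 (SE 0.21, edgeR adjusted p 3.4e-06), a reversal of 0.747. An opposite-strand lincRNA gene, Gm26735, overlaps 54.6% of the exonic bases of Sox4, and with the counting strand not given their reads cannot be told apart. Bnc2 (ENSMUSG00000028487, chromosome 4, 84275095 to 84675275, minus strand), a basonuclin zinc finger protein, was at 3.80, 4.77, 6.59 and 5.56 CPM at 0h and 6.34, 5.69, 7.94 and 8.09 CPM at 2h. Bnc2 was then at 18.8, 17.6, 17.3 and 16.6 CPM at 4h and 16.7, 16.1, 14.4 and 13.1 CPM in rev. All 4h and all rev libraries were above all 0h and 2h libraries, and 1 rev library reached into the 4h range. Bnc2 rose by 1.74 (SE 0.15) and its difference between rev and 4h was -0.20 (SE 0.12, edgeR adjusted p 0.3). With the percentage in the 8 abundant models in the fit that difference was 0.0083, and against 0h it was 1.54 (SE 0.15, edgeR adjusted p 5.3e-09).

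Rarg (ENSMUSG00000001288, chromosome 15, 102234938 to 102257517, minus strand), the gamma retinoic acid receptor, was at 29.6, 25.5, 18 and 22.4 CPM at 0h and 32.1, 32.4, 23.6 and 28.0 CPM at 2h. Rarg was then at 56.4, 64.5, 60.8 and 55.8 CPM at 4h and 40.6, 50.8, 42.9 and 37.4 CPM in rev. The rev libraries lay between 0h and 4h without touching either group. Rarg rose by 1.33 (SE 0.10), changed by -0.47 (SE 0.09, edgeR adjusted p 0.00057) from 4h to rev and was above 0h by 0.86 (SE 0.10, edgeR adjusted p 2.4e-07). Zfp979 (ENSMUSG00000066000, chromosome 4, 147611937 to 147642513, minus strand), a zinc finger protein from a multicopy gene family, was at 53.2, 64.6, 65.6 and 51.7 CPM at 0h and 59.4, 71.8, 74.2 and 76.7 CPM at 2h. Zfp979 was then at 87.0, 97.2, 100.3 and 97.6 CPM at 4h and 60.8, 59.7, 53.2 and 41.0 CPM in rev. Every rev library was below every 4h library, and rev overlapped 0h. Its rise was 0.69 (SE 0.10) and its fall -0.79 (SE 0.10, edgeR adjusted p 3.3e-07). Counts for such a family are uncertain, since reads can be split between near-identical copies. Nfkb1, a subunit of NF-kappaB, was lower in rev than at 4h (-0.60), as were Zfp532 (-0.46) and Tead4 (-0.61), the TEAD factor of the trophectoderm, which was at 8.42 to 29.5 CPM at 0h and 22.1 to 58.1 CPM at 4h. No fall was called for Tcf7l2, a nuclear partner of beta-catenin, which was at 13.1 to 23.6 CPM at 0h, 32.9 to 34.9 CPM at 4h and 27.4 to 35.1 CPM in rev. Foxp4, a forkhead repressor, and Nr1d1, the clock repressor REV-ERB alpha, had log2FC of -0.07 and 0.08 from 4h to rev and were above 0h (0.62 and 0.89). For Nr1d1, 8.55% of the exonic bases overlap Thra on the other strand.

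Of the 5 chromatin proteins and co-regulators, 2 were lower in rev and 4 were above 0h in rev (8.43% and 12.4% of all tested genes). Their median reversal was 0.0937. Jade2 (ENSMUSG00000020387, chromosome 11, 51813455 to 51857653, minus strand), a PHD finger protein of histone acetyltransferase complexes, was at 2.72, 2.09, 3.06 and 4.49 CPM at 0h and 3.62, 6.57, 2.37 and 3.20 CPM at 2h. Jade2 was then at 16.3, 14.1, 10.3 and 6.58 CPM at 4h and 13.1, 14.8, 8.29 and 5.41 CPM in rev. At 4h and in rev the libraries were above all 0h libraries, the lowest being those of clone 8 replicate 2. The rise was 1.82 (SE 0.23), and from 4h to rev the log2FC was -0.17 (SE 0.19, edgeR adjusted p 0.59), or 0.23 with the percentage in the 8 abundant models in the fit. Against 0h, Jade2 was higher in rev by 1.65 (SE 0.24, edgeR adjusted p 5.5e-06). Dnmt3l (ENSMUSG00000000730, chromosome 10, 78041947 to 78063622, plus strand), the inactive partner that stimulates de novo DNA methyltransferases, was at 1.36, 1.64, 6.75 and 8.66 CPM at 0h and 3.62, 3.07, 8.28 and 11.5 CPM at 2h. Dnmt3l was then at 10.6, 8.41, 20.1 and 20.8 CPM at 4h and 4.05, 5.0, 13.9 and 17.1 CPM in rev. Clone 8 was above clone 4 in each group, and within each clone 4h was highest and rev lay between 0h and 4h. Its rise was 1.72 (SE 0.18) and its fall -0.74 (SE 0.17, edgeR adjusted p 0.0023), a call lost without the clone term and with the percentage in the 8 abundant models in the fit. In exons, 2.24% of its bases overlap Aire on the other strand. Bcor, a BCL6 co-repressor, was at 50.1 to 58.4 CPM at 0h, 64.6 to 98.9 CPM at 4h and 65.0 to 95.6 CPM in rev (rev against 4h -0.01). Bahd1, a heterochromatin protein, had a log2FC of -0.04, and Phf6, a nucleolar PHD protein, fell by 0.63.

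The 16 receptors and signalling proteins had 11 members lower in rev and 7 above 0h in rev (8.43% and 12.4% of all tested genes). Their median reversal was 0.748. Ddx58 (ENSMUSG00000040296, chromosome 4, 40203773 to 40239828, minus strand), the cytosolic RNA sensor RIG-I, was at 6.52, 4.03, 3.22 and 2.24 CPM at 0h and 8.80, 9.63, 4.56 and 4.40 CPM at 2h. Ddx58 was then at 21.1, 23.2, 12.9 and 10.5 CPM at 4h and 8.85, 8.04, 4.31 and 3.16 CPM in rev. In each clone the 4h libraries were highest, and clone 8 was below clone 4 throughout. Ddx58 rose by 2.15 (SE 0.16) and changed by -1.43 (SE 0.14, edgeR adjusted p 4.7e-09) from 4h to rev. Ppm1j (ENSMUSG00000002228, chromosome 3, 104781056 to 104786018, plus strand), a phosphatase of the PP2C family, was at 1.63, 2.09, 2.73 and 3.63 CPM at 0h and 3.62, 3.5, 3.04 and 2.06 CPM at 2h. Ppm1j was then at 11.4, 13.8, 7.98 and 6.31 CPM at 4h and 2.88, 2.61, 3.65 and 2.25 CPM in rev. Only the 4h libraries stood apart, and those of clone 4 were the highest. Its rise of 1.87 (SE 0.23) was followed by -1.81 (SE 0.23, edgeR adjusted p 5e-07), a reversal of 0.966. F2rl1 (ENSMUSG00000021678, chromosome 13, 95511732 to 95525227, minus strand), a receptor that proteases switch on by cleavage, was at 10.9, 8.95, 10.8 and 14 CPM at 0h and 12.2, 11.4, 19.4 and 23.4 CPM at 2h. F2rl1 was then at 27.2, 25.8, 33.4 and 33.4 CPM at 4h and 11.8, 8.91, 18.4 and 21.6 CPM in rev. All 4h libraries were above all others, and in clone 8 the rise was already visible at 2h. F2rl1 had a rise of 1.47 (SE 0.13) and a fall of -1.06 (SE 0.12, edgeR adjusted p 1.1e-07), and was above 0h by 0.41 (SE 0.15, edgeR adjusted p 0.039).

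Sfn (ENSMUSG00000047281, chromosome 4, 133600556 to 133602168, minus strand), the cell cycle adaptor stratifin, was at 6.52, 4.18, 7.08 and 6.2 CPM at 0h and 8.42, 5.26, 8.19 and 10.3 CPM at 2h. Sfn was then at 12.6, 15.7, 19.6 and 15.5 CPM at 4h and 11.5, 11.3, 12.4 and 11.3 CPM in rev. The rev libraries were close together, above every 0h library and below every 4h library. Sfn rose by 1.44 (SE 0.15). Its fall of -0.41 (SE 0.14, edgeR adjusted p 0.037) was near the threshold and was lost without the clone term, in DESeq2, with the percentage in those 8 models in the fit and when any of 6 single libraries was left out. Socs5 (ENSMUSG00000037104, chromosome 17, 87107679 to 87137839, plus strand), a suppressor of cytokine signalling, was at 4.07, 3.28, 5.31 and 3.85 CPM at 0h and 4.53, 2.2, 4.22 and 5.25 CPM at 2h. Socs5 was then at 10.9, 7.36, 11.4 and 11.8 CPM at 4h and 3.30, 2.17, 2.98 and 3.61 CPM in rev. Every 4h library was above every other library, and rev overlapped 0h. The rise was 1.36 (SE 0.18) and the change to rev -1.74 (SE 0.20, edgeR adjusted p 7.6e-08), with -0.38 (SE 0.24, edgeR adjusted p 0.26) against 0h. Rapgef3 (ENSMUSG00000022469, chromosome 15, 97744770 to 97767972, minus strand), the cyclic AMP sensor EPAC, was at 2.72, 2.09, 1.61 and 2.57 CPM at 0h and 1.55, 3.5, 1.77 and 1.35 CPM at 2h. Rapgef3 was then at 4.84, 4.67, 6.27 and 5.53 CPM at 4h and 2.13, 0.652, 1.82 and 1.35 CPM in rev. The 4h libraries stood apart from the rest. Rapgef3 rose by 1.23 (SE 0.25) and changed by -1.65 (SE 0.28, edgeR adjusted p 4.9e-05) in rev, where its values rest on few counts. Igfbp4, which binds insulin-like growth factors, fell by 1.19, Shisa2, a regulator of FGF and WNT receptors, fell by 1.10, and Lck, a SRC family kinase, fell by 0.82. Rerg and Sigirr also fell (by 0.86 and 0.58), and no fall was called for Rassf3 (-0.32) or Pid1 (-0.37). Plxnc1, a semaphorin receptor, was at 1.36 to 3.28 CPM at 0h, 4.94 to 7.13 CPM at 4h and 5.97 to 6.76 CPM in rev, with no fall called (-0.01). Tnfrsf1a, the main TNF receptor, was at 0.876 to 4.14 CPM at 2h and 6.49 to 7.22 CPM at 4h, with -0.14 from 4h to rev. Its lowest 2h value is 2 counts in clone 4 replicate 2, under that library's floor of 1.31 CPM, and enters its 2h share of -0.65. Arhgap20 was at 9.79 and 10.05 CPM in the clone 4 libraries at 4h and at 1.52 and 1.05 CPM in those of clone 8, so its mean at 4h comes from clone 4.

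**Figure D3:**
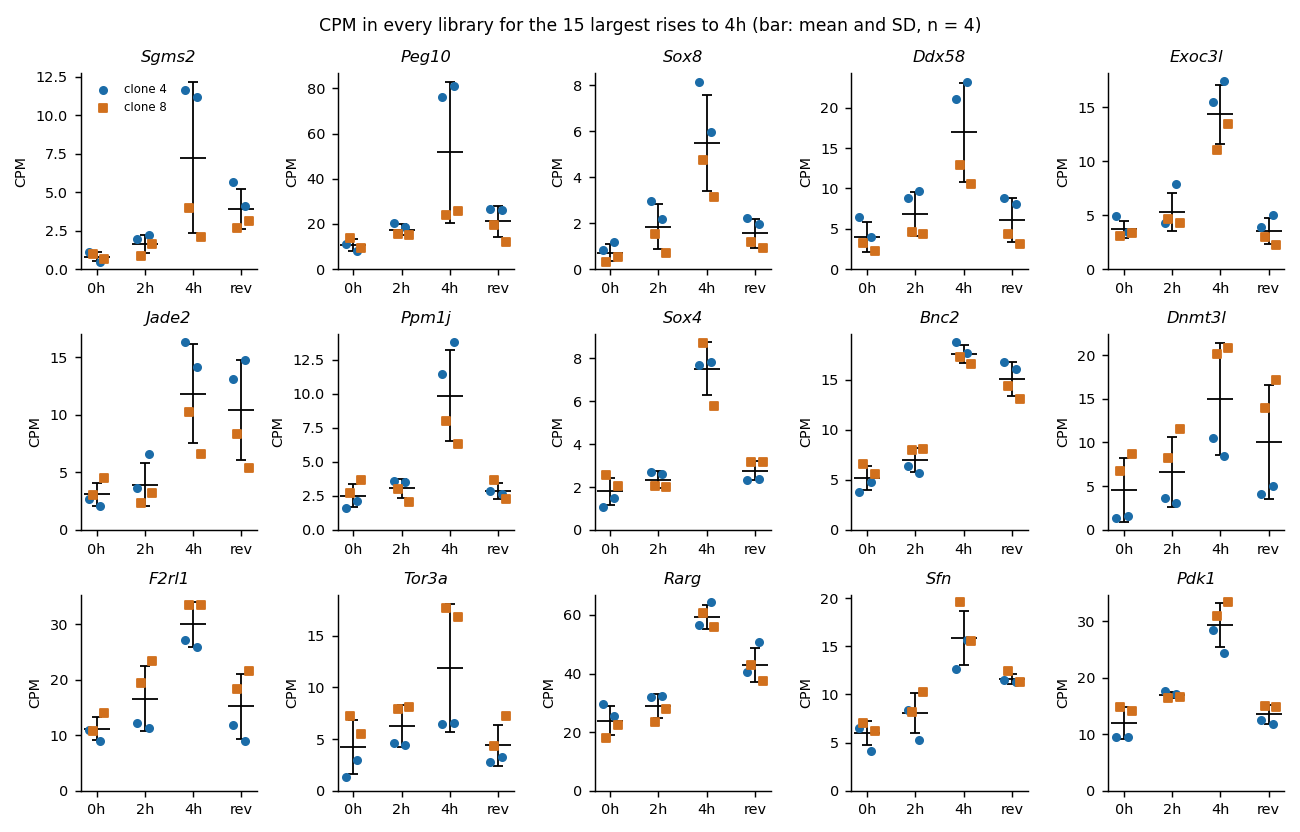
CPM in each library for the 15 late-induced genes with the largest rise, by group (x), with clone 4 as circles, clone 8 as squares and the mean and SD of 4 libraries as bars. In Exoc3l, Ppm1j and Sox4 only 4h stands apart, in Bnc2 and Jade2 rev stays with 4h, and in Peg10 and Sgms2 the clones separate at 4h.

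Among 11 enzymes and transporters, 8 were lower in rev and 5 above 0h in rev (8.43% and 12.4% of all tested genes). Their median reversal was 0.598. Sgms2 (ENSMUSG00000050931, chromosome 3, 131318985 to 131491411, minus strand), the sphingomyelin synthase of the plasma membrane, was at 1.09, 0.448, 0.965 and 0.641 CPM at 0h and 1.94, 2.2, 0.845 and 1.63 CPM at 2h. Sgms2 was then at 11.7, 11.2, 3.99 and 2.1 CPM at 4h and 5.65, 4.13, 2.65 and 3.16 CPM in rev. In clone 4 the order was 0h, 2h, rev and 4h, while in clone 8 the rev and 4h values overlapped. With 0h values near the floor of 0.321 to 0.815 CPM at that time, the fitted rise was 3.19 (SE 0.32). From 4h to rev it changed by -0.93 (SE 0.23, edgeR adjusted p 0.0041), a call lost without the clone term and with the percentage in those 8 models in the fit, and against 0h it was 2.26 (SE 0.37, edgeR adjusted p 3.6e-05). Pdk1 (ENSMUSG00000006494, chromosome 2, 71873224 to 71903858, plus strand), the kinase that shuts off pyruvate dehydrogenase, was at 9.51, 9.55, 14.8 and 14.1 CPM at 0h and 17.6, 17.1, 16.4 and 16.5 CPM at 2h. Pdk1 was then at 28.4, 24.3, 31.0 and 33.4 CPM at 4h and 12.5, 11.7, 14.9 and 14.9 CPM in rev. The 4h libraries were above all others and rev overlapped 0h. Pdk1 rose by 1.26 (SE 0.11) and changed by -1.11 (SE 0.11, edgeR adjusted p 6.9e-09) in rev. Itpk1 (ENSMUSG00000057963, chromosome 12, 102568582 to 102704930, minus strand), an inositol phosphate kinase, was at 25.3, 24.5, 42.6 and 47.9 CPM at 0h and 36.0, 40.7, 49.6 and 61.6 CPM at 2h. Itpk1 was then at 60.4, 58.5, 83.9 and 97.1 CPM at 4h and 39.7, 43.9, 60.5 and 70.8 CPM in rev. Clone 8 was above clone 4 in each group, and within each clone rev overlapped 2h and lay below 4h. Its rise was 1.10 (SE 0.09) and its fall -0.50 (SE 0.09, edgeR adjusted p 7.3e-05), which was not called without the clone term. 

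Slc7a7 (ENSMUSG00000000958, chromosome 14, 54369442 to 54417780, minus strand), a light subunit of a cationic amino acid transporter, was at 5.43, 3.58, 7.08 and 9.94 CPM at 0h and 5.57, 5.26, 6.08 and 7.24 CPM at 2h. Slc7a7 was then at 12, 15.3, 14.2 and 11.1 CPM at 4h and 3.84, 2.82, 3.31 and 2.70 CPM in rev. The rev libraries were the lowest of the 4 groups, touching only the lowest 0h library. Slc7a7 had a rise of 1.01 (SE 0.18) and the largest fall among the members, -1.98 (SE 0.21, edgeR adjusted p 1.6e-08). Against 0h it was lower, with -0.97 (SE 0.24, edgeR adjusted p 0.0038), and its reversal was 1.96. In exons, 6.998% of its bases overlap Oxa1l on the other strand. Slc29a1 (ENSMUSG00000023942, chromosome 17, 45585200 to 45599606, minus strand), an equilibrative nucleoside transporter, was at 33.1, 32.4, 34.7 and 40.8 CPM at 0h and 33.9, 25.8, 36.2 and 41.3 CPM at 2h. Slc29a1 was then at 59.8, 67.4, 56.2 and 55.0 CPM at 4h and 34.6, 36.5, 43.1 and 41.9 CPM in rev. The 4h libraries stood apart, and 2h, rev and 0h overlapped. The rise was 0.77 (SE 0.10) and the fall -0.65 (SE 0.10, edgeR adjusted p 9.1e-06). Car2, a carbonic anhydrase, fell by 0.70 and stayed above 0h (0.47). Sccpdh and Sult4a1 fell by 0.79 and 0.88, with reversals of 1.07 and 1.11. No fall was called for the drug and nucleotide exporter Abcc4 (-0.15), the lipid hydrolase Aoah (-0.23) or the aminopeptidase Anpep (-0.14).

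Of the 6 trafficking and protein handling genes 5 were lower in rev and 1 (Rimbp2) was above 0h in rev (8.43% and 12.4% of all tested genes). Their median reversal was 0.928. Exoc3l (ENSMUSG00000043251, chromosome 8, 105289924 to 105296101, minus strand), a relative of an exocyst subunit, was at 4.89, 3.43, 3.06 and 3.31 CPM at 0h and 4.27, 7.88, 4.65 and 4.26 CPM at 2h. Exoc3l was then at 15.5, 17.4, 11.0 and 13.4 CPM at 4h and 3.94, 5.0, 2.98 and 2.25 CPM in rev. All 4h libraries were above all others, and 2h clone 4 replicate 2 stood above the other 2h libraries. The rise was 1.98 (SE 0.17) and the fall -1.98 (SE 0.17, edgeR adjusted p 1.3e-10), a reversal of 1.00. Tor3a (ENSMUSG00000060519, chromosome 1, 156653617 to 156674356, minus strand), a torsin ATPase of the endoplasmic reticulum, was at 1.36, 2.98, 7.24 and 5.45 CPM at 0h and 4.66, 4.38, 7.94 and 8.09 CPM at 2h. Tor3a was then at 6.49, 6.54, 17.7 and 16.8 CPM at 4h and 2.77, 3.26, 4.31 and 7.21 CPM in rev. The clones differed at each time, and in each clone 4h was highest. Tor3a rose by 1.41 (SE 0.18) and changed by -1.46 (SE 0.19, edgeR adjusted p 7.5e-07) in rev. Mkrn1 (ENSMUSG00000029922, chromosome 6, 39397804 to 39420462, minus strand), a makorin ubiquitin ligase, was at 91.5, 102, 86.8 and 94.9 CPM at 0h and 132, 127, 103 and 93.4 CPM at 2h. Mkrn1 was then at 191, 171, 135 and 129 CPM at 4h and 105, 95.8, 84.0 and 87.4 CPM in rev. All 4h libraries were above all 0h and rev libraries, though 4h of clone 8 overlapped 2h of clone 4. Its rise was 0.71 (SE 0.08) and its fall -0.75 (SE 0.08, edgeR adjusted p 1.2e-08). Bag3 (ENSMUSG00000030847, chromosome 7, 128523616 to 128546981, plus strand), a partner of heat shock chaperones in protein quality control, was at 29.1, 21.9, 24.3 and 24.5 CPM at 0h and 28.7, 29.3, 28.7 and 33.7 CPM at 2h. Bag3 was then at 34.6, 41.4, 41.4 and 46.3 CPM at 4h and 24.0, 28.2, 26.2 and 28.4 CPM in rev. The 4h libraries were above the rest, and rev overlapped 0h. Bag3 had a rise of 0.73 (SE 0.10) and a fall of -0.62 (SE 0.10, edgeR adjusted p 1.8e-05). Scamp1, a secretory carrier protein, fell by 0.50, and Rimbp2, an active zone scaffold, had a log2FC of -0.29 that was not called.

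The 10 matrix, adhesion and cytoskeleton genes held 6 that were lower in rev and 7 above 0h in rev (8.43% and 12.4% of all tested genes). Their median reversal was 0.328. Slc9a3r1 (ENSMUSG00000020733, chromosome 11, 115163341 to 115181181, plus strand), a scaffold that links membrane proteins to ezrin, was at 20.9, 24.9, 25.6 and 27.2 CPM at 0h and 28.7, 25, 30.7 and 32.6 CPM at 2h. Slc9a3r1 was then at 38.3, 38.9, 43.1 and 39.2 CPM at 4h and 27.7, 28.0, 31.7 and 32.9 CPM in rev. Every 4h library was above every library of the other groups, and rev overlapped 2h. Slc9a3r1 rose by 0.69 (SE 0.08), changed by -0.42 (SE 0.08, edgeR adjusted p 0.00038) in rev and stayed above 0h with 0.26 (SE 0.09, edgeR adjusted p 0.029). Lamb1, a laminin chain of basement membranes, was at 20.6 to 42.9 CPM at 0h, 47.2 to 58.3 CPM at 4h and 42.2 to 54.7 CPM in rev, and no fall was called (-0.11). S100a10, a partner of annexin, fell by 0.76, Ctnnal1, a relative of alpha-catenin, by 0.54, and Stom, a membrane scaffold, by 0.67. For the glycoprotein Gpnmb (-0.03), the membrane protein Xk (-0.10) and Iffo2 (-0.22) no fall was called.

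Rai14 (ENSMUSG00000022246, chromosome 15, 10568969 to 10714624, minus strand), an actin-binding protein, was at 38.8, 33.4, 62.6 and 70.4 CPM at 0h and 49.1, 42.5, 73.7 and 81.5 CPM at 2h. Rai14 was then at 70.4, 69.6, 101 and 109 CPM at 4h and 58.7, 63.6, 77.1 and 94.2 CPM in rev. Clone 8 was above clone 4 in each group, and within each clone rev lay below 4h. Its rise was 0.79 (SE 0.09). Its change in rev of -0.26 (SE 0.09, edgeR adjusted p 0.035) was the smallest fall that was called, and was lost without the clone term, with the percentage in the 8 abundant models in the fit and when any of 5 single libraries was left out (4h clone 4 replicates 1 and 2, 4h clone 8 replicate 2, and replicate 1 of either clone in rev). Epb41l4a (ENSMUSG00000024376, chromosome 18, 33796327 to 34006966, minus strand), a member of the FERM domain family, was at 16, 12.5, 17.0 and 17.1 CPM at 0h and 18, 14.5, 25.8 and 25.6 CPM at 2h. Epb41l4a was then at 23.6, 25.6, 39.7 and 41.3 CPM at 4h and 21.5, 22.4, 27.7 and 27.5 CPM in rev. Within each clone the rev libraries lay above 0h and below 4h. Epb41l4a rose by 1.05 (SE 0.10) and changed by -0.35 (SE 0.10, edgeR adjusted p 0.013) in rev, a call lost without the clone term and without rev clone 8 replicate 1.

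The remaining 5 genes held 4 that were lower in rev (8.43% of all tested genes). Peg10 (ENSMUSG00000092035, chromosome 6, 4747306 to 4760517, plus strand), an imprinted gene derived from a retrotransposon and needed in the placenta, was at 11.1, 7.91, 13.8 and 9.19 CPM at 0h and 20.2, 18.8, 15.6 and 15 CPM at 2h. Peg10 was then at 76.2, 81.2, 23.7 and 25.8 CPM at 4h and 26.8, 26.3, 19.4 and 12.2 CPM in rev. In clone 4 the 4h libraries were far above all others, and in clone 8 they were above the 2h and rev libraries by less. Over both clones the rise was 2.22 (SE 0.20) and the fall -1.24 (SE 0.19, edgeR adjusted p 9e-06). Ier5l (ENSMUSG00000089762, chromosome 2, 30471537 to 30474219, minus strand), a relative of the immediate-early gene Ier5, was at 26.1, 25.8, 20.7 and 21.3 CPM at 0h and 23.2, 30.2, 24.3 and 25.8 CPM at 2h. Ier5l was then at 37.9, 39.4, 40.3 and 33.4 CPM at 4h and 35.1, 28.0, 24.0 and 23.0 CPM in rev. The rev libraries overlapped 4h through clone 4 replicate 1 and overlapped 0h through clone 8. Its rise was 0.69 (SE 0.10) and its fall -0.42 (SE 0.10, edgeR adjusted p 0.0033). Ankrd33b fell by 1.59, with a reversal of 1.58, from 7.01 to 10.8 CPM at 4h to 2.25 to 2.77 CPM in rev. Lrrfip1 had a log2FC of -0.08 that was not called. Zswim6 (ENSMUSG00000032846, chromosome 13, 107724617 to 107890064, minus strand), a SWIM zinc finger protein, was at 8.15, 6.86, 11.9 and 11.2 CPM at 0h and 9.97, 10.5, 12.2 and 14.1 CPM at 2h. Zswim6 was then at 23.6, 19.7, 17.1 and 18.7 CPM at 4h and 16.1, 16.5, 12.9 and 14.4 CPM in rev. Every rev library was above every 0h library and below every 4h library. Its rise was 1.06 (SE 0.15). Its change in rev of -0.42 (SE 0.14, edgeR adjusted p 0.039) was no longer called without the clone term, in DESeq2, with the percentage in the 8 abundant models in the fit, where it was -0.10, and when any of 5 single libraries was left out (4h clone 4 replicates 1 and 2, rev clone 4 replicate 1, and rev clone 8 replicates 1 and 2).

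Levels between genes were compared per kb of exon. At 4h the highest were Mkrn1 (35.2 CPM per kb), Zfp979 (23.2), Itpk1 (22.6), Slc9a3r1 (20.7), Bag3 (16), Slc29a1 (14.9), Ier5l (14.1) and Rarg (13.9), all in CPM per kb. The lowest member was at 0.442 CPM per kb. The median was 3.55 CPM per kb for the late-induced genes, 7.42 for the genes with an earlier rise and 2.80 for all tested genes.

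The 2 clones gave a check on libraries that had not chosen the genes. Applied to clone 4 alone, the same limits chose 103 genes, 44 of them members, of which 53 (51.5%) were higher at 4h than at 0h in clone 8 (background 11.9%) and 29 (28.2%) higher at 4h than at 2h (background 1.35%). In rev 15 of these 103 genes (14.6%) were lower than at 4h in clone 8 (background 2.8%) and 1 was higher. The median reversal of the 103 there was 0.469. Applied to clone 8 alone, the limits chose 75 genes, 33 of them members. In clone 4, 45 of these (60%) were higher at 4h than at 0h (background 11.6%), 29 (38.7%) higher than at 2h (background 1.75%) and 36 (48%) lower in rev than at 4h (background 5.46%), with a median reversal of 0.539. For 1 gene 4h was called lower there than both 0h and 2h, and for 1 rev was called higher than 4h. Genes with an earlier rise (324, chosen on libraries of both clones) were higher at 4h than at 0h for 95.4% in clone 8 and 97.2% in clone 4. Their shares higher at 4h than at 2h were 19.8% and 27.5%. The genes chosen in both clones numbered 21, all members: Bnc2, Car2, Ctnnal1, Ddx58, Dnmt3l, Exoc3l, Igfbp4, Jade2, Peg10, Plxnc1, Ppm1j, Rai14, Rarg, Rimbp2, S100a10, Sfn, Shisa2, Socs5, Sox4, Stom and Zfp532. A further 23 members met the limits in clone 4 only, 12 in clone 8 only and 9 in neither clone alone.

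Over the 65 late-induced genes the median log2FC from 0h to 4h was 1.12 in clone 4 and 0.84 in clone 8. The same libraries chose the genes, so these medians are a description. The difference, clone 8 minus clone 4, was positive for 21 of 65 members (median -0.24) and for 117 of the 324 genes with an earlier rise (median -0.13). The difference between clones was called for 1 member, Peg10 (edgeR adjusted p under 0.05; 0.311% of all genes), and 16 had an unadjusted p under 0.05 (11.6% of all genes, and 86 of the 324 genes with an earlier rise). Peg10 rose by 3.11 in clone 4 and by 1.14 in clone 8, a difference of -1.96 (SE 0.25, edgeR adjusted p 4e-05), and between 2h and 4h the difference was -1.30 (SE 0.21, edgeR adjusted p 0.0023; 0.0327% of all genes called). Without 4h clone 4 replicate 2 the count of members was 3. The next were Lamb1 (-0.68, edgeR adjusted p 0.067), Zswim6 (-0.93, adjusted p 0.087) and Jade2 (-1.56, adjusted p 0.097), none past the threshold. No member was called for a clone difference in the change from 4h to rev (0.00819% of all genes; 10 members at an unadjusted p under 0.05, against 6.03% of all genes). Averaged over groups, 22 members were higher and 15 lower in clone 8 (15.4% and 13.7% of all genes). These ran from Arhgap20 at -2.11 to Rerg at 1.63, with Tead4 at 1.36.

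**Figure D4:**
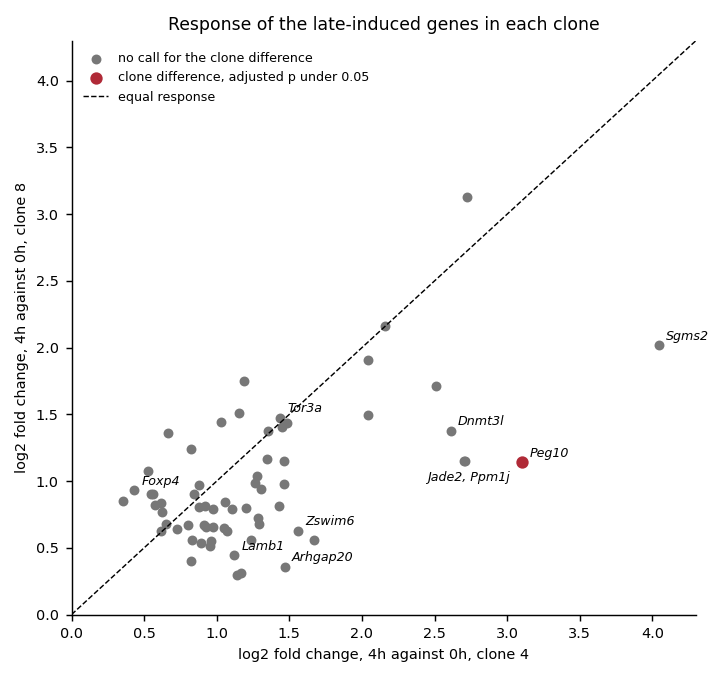
Log2 fold change from 0h to 4h in clone 4 (x) and clone 8 (y) for the 65 late-induced genes, with a dashed line of equal response. More points lie below the line than above it, and Peg10 (red) is the only member called for a difference between the clones.

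The gene spans of the late-induced genes in GENCODE M21 had a median of 36.1 kb, against 20.8 kb for the 324 genes with an earlier rise and 22.8 kb for all tested genes, and 27.7% of them spanned over 100 kb against 12.7% and 12.3%. When the 389 induced genes were ordered by span, 10 of the 130 shortest (7.69%), 25 of the next 129 (19.4%) and 30 of the 130 longest (23.1%) were late-induced. Exonic length differed less, with medians of 4.80, 4.42 and 4.42 kb. Among the members, the span also went with the outcome in rev. Over all tested genes 8.43% were called lower in rev than at 4h. Span was not set against the change in rev outside the members, so whether this is particular to them was not tested. The 43 genes that fell had a median span of 23.2 kb and the 22 others 89.2 kb, with median 4h levels of 16.9 and 10.52 CPM and median rises of 0.96 and 0.72 on the log2(CPM + 1) scale. With members split into 3 classes by span, 20 of 22 short, 13 of 21 middle and 10 of 22 long ones fell, with median reversals of 0.668, 0.717 and 0.310. Across the 65 genes, the Spearman correlation between span and reversal was -0.42, between 4h level and reversal -0.04, and between rise and reversal 0.12. Genes share libraries and are not independent replicates, so these are descriptions. Bnc2 (400.2 kb), Pid1 (327.9 kb) and Aoah (242.5 kb) were the longest, and none was called lower in rev. The shortest were Sfn (1.61 kb), Ier5l (2.68 kb), Sox4 and Sox8 (each 4.80 kb), and all 4 were called lower.

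**Figure D5:**
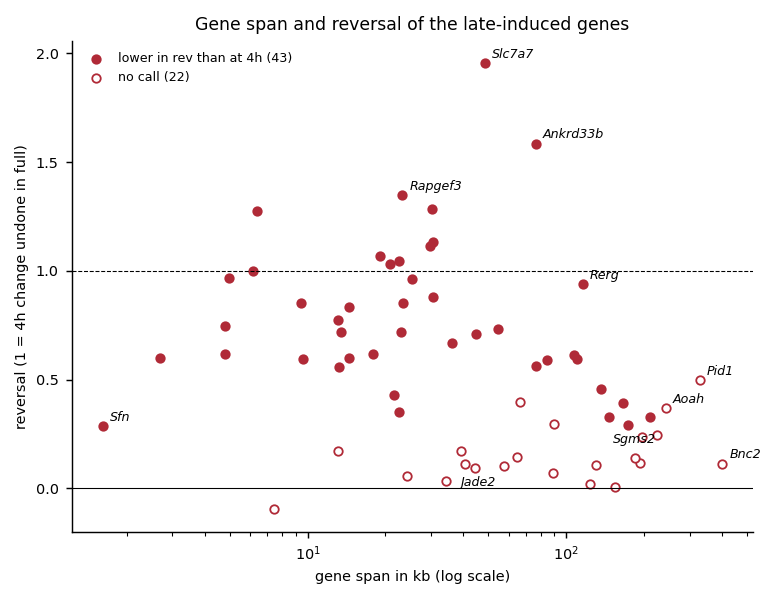
Gene span in kb (x, log scale) against reversal (y) for the 65 late-induced genes, filled where the fall from 4h to rev was called. Points at 0.5 or more, such as Rapgef3 and Slc7a7, lie mostly below 100 kb, while long genes such as Bnc2 and Aoah lie lower, and Sfn is short with a low reversal.

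The annotation listed 64 of the 65 as protein-coding, the other being Zswim6, listed as a processed transcript. They lay on 19 chromosomes, with 7 on chromosome 4, 6 on chromosome 6 and 3 on the X chromosome. Exons of 18 members overlapped those of another gene, 14 of them on the opposite strand, among them Zfp532 (21.7% and 7.07% of exonic bases with different genes), Exoc3l (14.4%), Sox8 (10.6%), Mkrn1 (8.22%), Slc29a1 (6.86%) and Rapgef3 (5.54% and 3.72% with different genes).

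Other genes of the pathway were followed through 6 lists. Of 24 ERK feedback and immediate-early genes 22 were tested, of which 18 were higher at 2h, 20 higher at 4h and 18 lower in rev than at 4h. Their medians were 1.87, 1.56 and -1.54, against -0.02, -0.02 and 0.01 over all genes. None is late-induced, where 65 of all 12215 tested genes are. Fosl1, with means of 1.04, 1.27 and 2.48 CPM at 0h, 2h and 4h, was under the 4h minimum of 5 CPM. Over all tested genes 17.2% were higher and 16.8% lower at 4h than at 0h, and 8.43% lower in rev than at 4h, and the counts below stand beside these shares. The actin, adhesion and SRF target list had 22 tested, 13 higher at 4h (median 0.54) and 3 lower in rev. Of 16 tested formative and primed epiblast genes 8 were higher and 1 lower at 4h (median 0.37), and of 12 naive pluripotency genes 4 were higher and 5 lower (median -0.12). The matrix and integrin list had 5 higher and 3 lower of 22 at 4h (median -0.04), close to the shares over all genes, Lamb1 being its late-induced gene. The protease and EMT list had 5 higher and 1 lower of 8 (median 0.74).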

How the data were processed

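Total RNA from 16 embryonic stem cell libraries was depleted of ribosomal RNA and sequenced, per the labels' protocols. The authors deposited raw read counts per gene. Reads were handled with bcl2fastq 2.19.1, STAR 2.5.3a and the mm10 genome, per the submitters' processing notes. The counting tool, annotation and strand setting are not given in the sources used here. Of 52636 gene identifiers, 52403 were given a symbol.

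Counts were filtered with filterByExpr by group, which kept 12215 genes, and scaled by TMM. Changes were tested with the quasi-likelihood test of edgeR 4.0.16 (R 4.3.3, limma 3.58.1) over all 16 libraries with clone as a covariate, two-sided, with Benjamini-Hochberg adjustment over all 12215 genes and a threshold of 0.05. Clone differences were interaction terms. DESeq2 1.42.0, other scalings, filters, covariates, membership limits and left-out libraries were alternatives. Those using the 8 most abundant gene models, the added fold limit and all for the median reversal except selection across clones were chosen after seeing the data. The code was tested on simulated data.

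The members, roles and gene lists were chosen with earlier results of these data known. Values in every library are given for the 15 largest rises, the 8 highest levels per kb at 4h, the 6 largest and 6 smallest called changes in rev, and members called for a clone difference. Gene positions and overlaps came from GENCODE M21 (GRCm38). All 65 members enter the counts, and 1 of them is not reported by name here.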

Additional observations from a re-analysis of the deposited data

Results flagged for a closer look

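Exoc3l was at 7.88 CPM in 2h clone 4 replicate 2, which stood above the other 2h libraries at 4.26 to 4.65 CPM. This is the shallowest library, with 2172651 counts. Bag3 was at 33.7 CPM in 2h clone 8 replicate 2, above the other 2h libraries at 28.7 to 29.3 CPM. These 2 were the only such libraries among 112 groups of 4 (28 genes in 4 groups). The limit marks about 1 in 20 groups when all 4 values come from a single normal distribution. Each group here mixes 2 clones, so that rate does not apply, and nothing is read from the low count.

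The response of Peg10 differed between the clones by a test of the difference itself. Clone 8 minus clone 4, the log2 fold change from 0h to 4h differed by -1.96 and that from 2h to 4h by -1.30, so both rises were smaller in clone 8.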

How the results depend on the processing

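The number of late-induced genes, 65, was 197 with library size alone, 114 without the 8 most abundant gene models, 103 in clone 4 only, 41 at a 4h minimum of 10 CPM, 33 at a minimum rise of 0.8, and 38 or 107 with a 2h limit of 0.3 or 0.5; leaving out 1 library gave 62 to 86 (86 without 4h clone 4 replicate 1). Of these, 43 were lower in rev than at 4h, 28 without the clone term, 15 with a log2 change of at least 1 as well, and 37 to 42 with 1 library left out; none was higher in any setting. The count above 0h in rev, 36, was 4 with library size alone, 15 without the clone term and 28 to 33 with 1 library left out. The count of clone differences, 1, was 3 with library size alone or no low-count filter, and 1 to 3 with 1 library left out. Median reversal, 0.591, was 0.881 with library size alone, 0.469 when genes chosen in clone 4 were measured in clone 8, and 0.523 to 0.586 with 1 library left out. Of 476 values of the change from 4h to rev in 28 named genes under alternatives, 443 kept direction and call, 31 lost the call (9 of them Sfn, 8 Zswim6 and 7 Rai14) and 2 turned sign when the percentage in those 8 models entered the fit: Bnc2 to 0.0083 and Jade2 to 0.23. Rises and differences from 0h were not recomputed for single genes. Where no cause is part of the setting, the cause was not tested.

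The replicate block gave 43 members lower in rev than at 4h, 35 above 0h and a median reversal of 0.584. Replicate numbers did not pair the libraries: over 12 pairs of groups within a clone the correlation of deviations had a mean of 0.0096 (-0.32 to 0.19; 6107 genes), over 0.1 in 4. The members with 3 counts or fewer were Lrrfip1, Tnfrsf1a, Gpnmb and Arhgap20 in the shallowest library, 2h clone 4 replicate 2 (3 counts were 1.31 CPM), Sox8 and Rapgef3 in rev clone 8 replicate 2 (1.35 CPM), Rapgef3 in rev clone 4 replicate 2, and Sox8 and Sgms2 in libraries at 0h.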
